A study of Mus musculus with 8 samples.

Results

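The genes described here encode chains of the cell-surface receptors through which microglia could sense interleukins: *Il7r*, *Il10ra*, *Il10rb*, *Il6ra*, *Il6st*, *Il4ra*, *Il13ra1*, *Il21r*, *Il2rg* and *Il17ra*. They were taken by name and not by a cut on their values, but with earlier results of these data known. All 10 were found among the 55573 genes of the deposited count table. Interleukin receptors work as pairs of chains: 1 chain gives specificity for the ligand, and a second, often shared by several receptors, completes the complex. Most of these chains have no enzyme activity, and signal through Janus kinases (JAKs) bound to their tails, which phosphorylate STAT transcription factors; the IL-17 receptor instead recruits adaptor proteins that lead to NF-κB. In microglia, the resident macrophages of the brain, the receptor for IL-10 is best known for restraining inflammatory gene expression, and those for IL-4 and IL-13 for inducing genes of alternative activation.

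RNA was sequenced from microglia of 4 mutant and 4 control mice at postnatal day 60 (P60), with 1 library per mouse. The mutants, labelled SmadKO, carried floxed alleles of *Smad2* and *Smad3*, which encode the transcription factors downstream of TGFβ receptors, together with Cre recombinase expressed from *Cx3cr1* (*Smad2/3* fl/fl;*Cx3cr1* Cre). This Cre is active in microglia and also in related macrophages and monocytes. The labels call the other mice WT, and describe them as littermates; the methods of the study state that controls in general carried Cre and a floxed allele, so that the exact control genotype is not settled by these sources. Mice were backcrossed to C57BL6/J. The labels give the cells only as sorted microglia from brain, and the methods describe Percoll gradients followed by flow cytometry with antibodies to CD45 and CD11b, markers that other brain macrophages share.

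The libraries held between 35639502 and 41946479 counts, and 20153 genes reached 10 counts in 4 or more of them and were tested. Of the targeted genes, *Smad3* lay between 39.4 and 56.8 counts per 1000000 (CPM) in controls and between 9.60 and 35.1 in mutants (log2 fold change −1.33 ± 0.36 (SE, n = 4 and 4), adjusted p = 0.0429 by edgeR's quasi-likelihood test with Benjamini-Hochberg adjustment). This call was kept without mutant 3, the mutant library with the most *Smad3*, but lost when any of the other 7 libraries was left out (adjusted p from 0.0565 without control 1 to 0.110 without control 2). *Smad2* differed by −0.34 ± 0.22 and was not called (adjusted p = 0.340). Counts over whole genes include transcripts that lack the deleted part, so they are a partial check of the labels. All 10 microglial marker genes had a negative log2 fold change, and 9 were called lower in mutants (90.0%, against 7.97% of all genes tested). The summed level of the 10 was 31408 to 47844 CPM in controls and 5717 to 7996 CPM in mutants. Markers of border macrophages, the macrophages of the meninges and perivascular spaces, went the other way. Of 8, 5 were called higher (62.5%, against 4.36% of all genes tested). The summed level of the 8 was 53.5 to 99.5 CPM in controls against 1635 to 2535 CPM in mutants. The X-inactivation transcript *Xist* was at 99.3 to 183 CPM in all controls and at 0.0276 to 0.561 CPM in all mutants, and the Y-linked *Ddx3y* was at 0.0269 to 0.224 CPM in controls and 9.73 to 59.7 CPM in mutants. Sex-linked expression thus split the libraries exactly as genotype did, and the 2 cannot be told apart in any comparison below.

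Of the 10 receptor chains, 8 were called at an adjusted p below 0.05, against 12.3% of all genes tested. *Il7r*, *Il6st*, *Il21r*, *Il10ra*, *Il17ra* and *Il6ra* were lower in mutants (background 7.97% of genes), *Il10rb* and *Il2rg* were higher (background 4.36%), and *Il13ra1* and *Il4ra* were not called. The 8 called chains were also those whose 4 mutant values did not overlap the 4 control values, which held for 22.1% of all genes. The median log2 fold change of the 10 chains was −1.32, and that of all tested genes was 0.01. All 10 were well covered, with between 245 and 36841 counts in any library, and their coefficients of variation within a group ran from 8.40 to 36.0%. In bulk RNA, a lower level in a population may come from fewer cells that express a gene or from less RNA per cell, and these cannot be told apart here. Control 3 was the highest control library for 8 of the 10 chains, and mutant 3 the highest mutant library for 8. Leaving out either of these libraries changed no call but that of *Il2rg*.

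**Figure D1:**
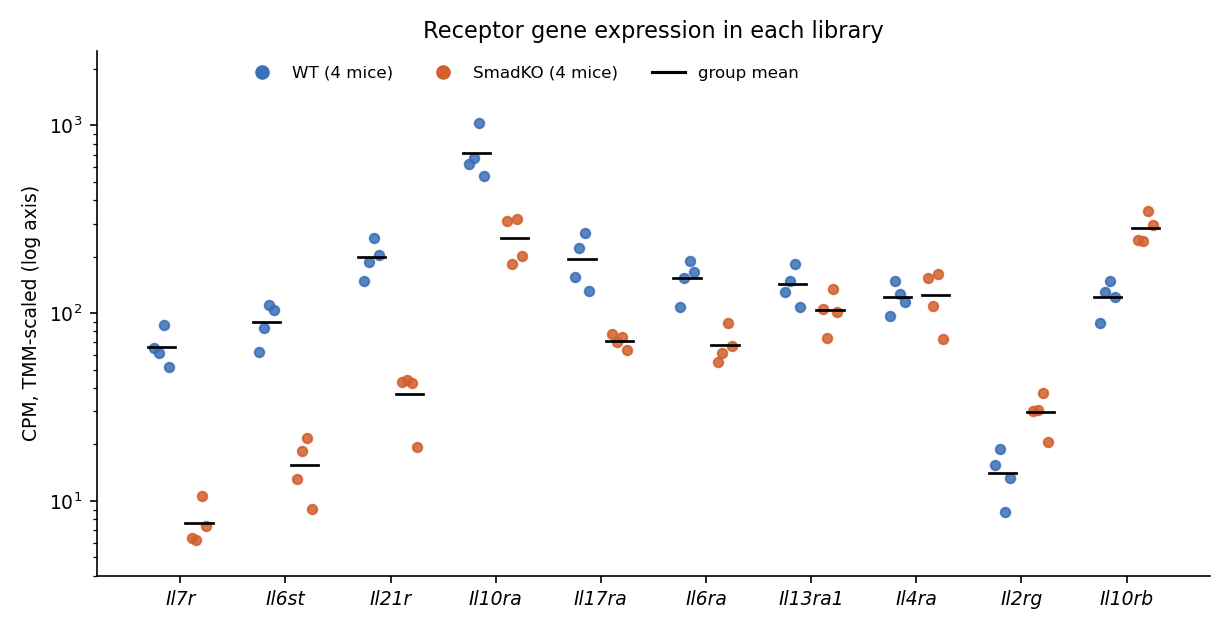
Level of each receptor chain in CPM (log axis) in every library, with controls and mutants as separate points and genes ordered from the largest decrease to the largest increase. The mutant points of *Il7r*, *Il6st*, *Il21r*, *Il10ra*, *Il17ra* and *Il6ra* all lie below the control points, those of *Il2rg* and *Il10rb* all lie above, and those of *Il13ra1* and *Il4ra* overlap them.

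**Figure D2:**
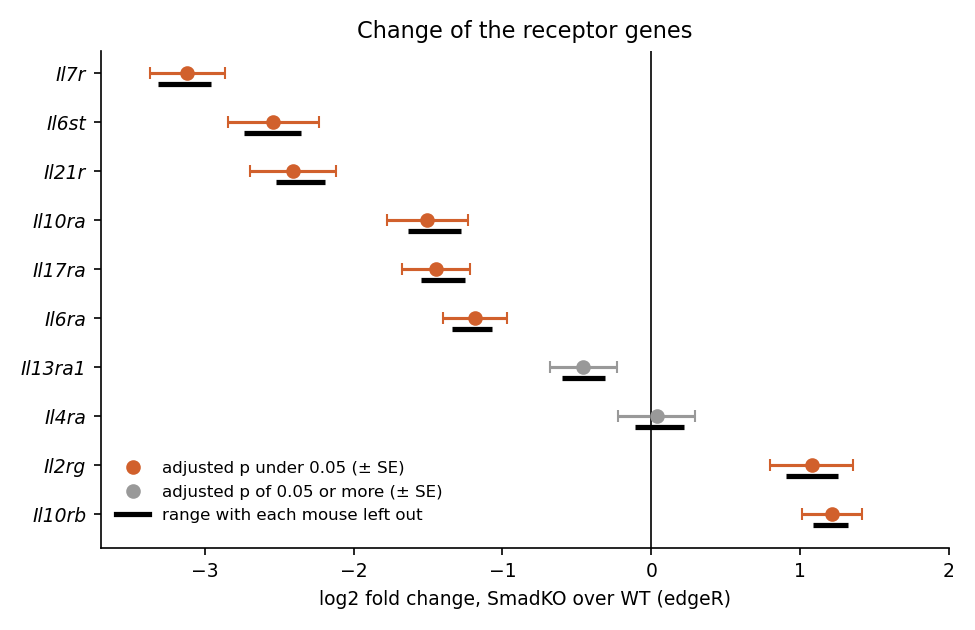
Log2 fold change of each receptor chain, mutants over controls (x axis), with its standard error as the bar, the range over fits that leave out 1 library as the black line under it, and called genes in orange. Values run from −3.12 for *Il7r* to 1.22 for *Il10rb*, and only the range of *Il4ra* crosses 0.

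The promoters of the 3 chains that fell most, and of *Il2rg*, which shares receptors with *Il7r* and *Il21r* but was higher, are shown because, among the chains with a promoter held, these moved furthest apart. They are the 250 bases before the RefSeq start of each gene (build GRCm38.p6), 5′ to 3′ on the gene's strand, in lower case, with matches to the searched motifs in capitals. They lie at chr15:9529877-9530126 on the minus strand for *Il7r*, chr13:112463820-112464069 on the plus strand for *Il6st*, chr7:125603179-125603428 on the plus strand for *Il21r* and chrX:101268256-101268505 on the minus strand for *Il2rg*.
Il7r: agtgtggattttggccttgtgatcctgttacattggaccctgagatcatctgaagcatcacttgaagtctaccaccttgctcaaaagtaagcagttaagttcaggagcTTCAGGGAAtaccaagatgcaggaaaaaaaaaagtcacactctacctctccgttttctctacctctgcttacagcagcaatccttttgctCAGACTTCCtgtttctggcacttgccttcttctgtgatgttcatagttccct
Il6st: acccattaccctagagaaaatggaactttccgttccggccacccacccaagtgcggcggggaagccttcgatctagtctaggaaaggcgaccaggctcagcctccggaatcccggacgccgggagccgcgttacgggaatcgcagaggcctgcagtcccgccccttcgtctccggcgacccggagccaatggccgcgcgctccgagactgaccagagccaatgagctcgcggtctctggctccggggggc
Il21r: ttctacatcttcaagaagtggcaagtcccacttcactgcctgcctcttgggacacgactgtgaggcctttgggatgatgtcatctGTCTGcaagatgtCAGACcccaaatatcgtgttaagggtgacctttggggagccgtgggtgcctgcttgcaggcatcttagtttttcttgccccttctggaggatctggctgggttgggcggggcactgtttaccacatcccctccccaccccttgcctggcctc
Il2rg: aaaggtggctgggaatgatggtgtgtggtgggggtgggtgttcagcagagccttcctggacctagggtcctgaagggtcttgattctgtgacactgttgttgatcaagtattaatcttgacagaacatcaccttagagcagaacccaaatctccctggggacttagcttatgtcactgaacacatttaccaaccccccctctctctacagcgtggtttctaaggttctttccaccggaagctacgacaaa
The motifs searched, on both strands, were the STAT motif TTCNNNGAA, the core of ETS-family sites GGAAGT, the SMAD-binding motif CAGAC and the interferon-response motif, GAAA and GAAA parted by any 2 bases. Promoters were held for 7 of the 10 chains, those of *Il10ra*, *Il10rb* and *Il17ra* not among them. The *Il7r* window lies inside the annotated span of the gene given below (chr15:9505788-9530176), whose start is further upstream than the RefSeq one. It held a STAT match that begins 142 bases before the RefSeq start, a SMAD match at 52 bases and an ETS match at 49 bases. The last pair overlap. The *Il7r* window was the only 1 of the 7 with a STAT match, which 7.02% of 32851 promoters of the same length held. The *Il21r* window held a pair of SMAD matches, at 165 and 152 bases before the start, and *Il4ra* and *Il13ra1* held matches to the same motif, as did 42.2% of all promoters. ETS matches lay in the *Il7r*, *Il6ra* and *Il13ra1* windows and in 19.7% of all promoters, and no window of the 7 held the interferon-response motif, found in 2.98% of all. The *Il6st* and *Il2rg* windows held none of the 4 motifs. The windows also differed in base composition, with a GC content of 66.0% for *Il6st*, 55.6% for *Il21r*, 49.2% for *Il2rg* and 44.0% for *Il7r*. A match is a string of letters and does not show that a factor binds there.

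The receptor for IL-10 is built of *Il10ra*, the chain that gives it specificity, and *Il10rb*, a chain shared with the receptors for IL-22 and type III interferons. The 2 genes changed in opposite directions. *Il10ra* (ENSMUSG00000032089; chr9:45253837-45269149, minus strand, GRCm38) was at 627, 674, 1030 and 540 CPM in control mice 1 to 4 and at 310, 182, 319 and 201 CPM in mutant mice 1 to 4. Every mutant lay below every control, with the lowest control 1.69 times the highest mutant. Its mean was 718 ± 215 CPM (SD, n = 4) in controls and 253 ± 71.5 CPM in mutants, a 2.84-fold decrease (log2 fold change −1.50 ± 0.27, SE; adjusted p = 0.00729 by edgeR). *Il10rb* (ENSMUSG00000022969; chr16:91406164-91425834, plus strand) was at 88.9, 129, 148 and 123 CPM in controls and at 246, 242, 352 and 295 CPM in mutants. Here every mutant lay above every control, and the lowest mutant was 1.64 times the highest control. The means were 122 ± 24.6 and 284 ± 51.4 CPM, a 2.32-fold increase (1.22 ± 0.20; adjusted p = 0.00461 by edgeR). Of the exon bases of *Il10rb*, 14.9% are also annotated to *Gm21970*, a gene listed at 0 in all 8 libraries, and the reads of the pair cannot be told apart there. The other partners of *Il10rb* were scarce: *Ifnlr1*, of the type III interferon receptor, did not exceed 0.556 CPM in any library (log2 fold change −0.51, 95% interval −3.87 to 2.84; adjusted p = 0.865 by edgeR), and *Il22ra1*, of the IL-22 receptor, was listed at 0 in all. *Il20rb*, which joins *Il22ra1* in a receptor of related ligands, differed by −0.47 (−2.88 to 1.93; adjusted p = 0.822).

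Compared per kilobase of exon, *Il10ra* exceeded *Il10rb* 6.31-fold in controls, and the 2 chains were about level in mutants, at a ratio of 0.952. On the log2 scale the ratio was 2.66 ± 0.33 (SD, n = 4) in controls and −0.07 ± 0.39 in mutants, a difference of −2.73 ± 0.26 (SE). No mutant ratio reached a control ratio (exact permutation test, two-sided, p = 0.0286). That is the smallest p that 4 against 4 libraries can give, and it is not adjusted over the 7 ratios compared here. With every mutant below every control for *Il10ra* and above for *Il10rb*, the ratio had to separate. Its p-value thus adds nothing to the calls of the 2 genes. The shared chain, a minor partner in controls, lay at about the level of the specific chain in mutants.

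The receptors for IL-6 and its relatives join a ligand-binding chain to gp130, the signalling chain encoded by *Il6st*. Both *Il6st* and *Il6ra*, the binding chain for IL-6, fell in mutants, and *Il6st* fell further. *Il6st* (ENSMUSG00000021756; chr13:112464070-112510086, plus strand) was at 62.0, 83.1, 111 and 104 CPM in controls and at 13.02, 18.4, 21.6 and 9.02 CPM in mutants. The highest mutant was well under the lowest control, which was 2.88 times as high. Its mean went from 90.1 ± 22.2 to 15.5 ± 5.57 CPM (SD, n = 4 each), a 5.81-fold decrease (−2.54 ± 0.31; adjusted p = 0.00100 by edgeR). *Il6ra* (ENSMUSG00000027947; chr3:89864059-89913196, minus strand) was at 108, 153, 190.4 and 166 CPM in controls and at 55.0, 61.7, 88.4 and 66.5 CPM in mutants. The groups did not overlap, but came closer than for *Il6st*: the lowest control, mouse 1, was 1.22 times the highest mutant, mouse 3. The decrease was 2.27-fold, from 154 ± 34.5 to 67.9 ± 14.4 CPM (−1.18 ± 0.22; adjusted p = 0.00814 by edgeR). The ratio of *Il6ra* to *Il6st* per kilobase rose accordingly from 2.21 to 5.84, or by 1.40 ± 0.25 on the log2 scale (exact permutation p = 0.0286, two-sided).

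Other chains that use gp130 were not called where they could be tested. *Il11ra1* differed by −0.02 (95% interval −0.32 to 0.27), *Il27ra* by −0.24 (−1.34 to 0.85) and *Lifr*, the receptor for leukaemia inhibitory factor, by 0.09 (−0.64 to 0.82) on the log2 scale, with adjusted p from 0.795 to 0.931 by edgeR. For *Il11ra1* the interval leaves room for a change of less than 0.32, much smaller than those of *Il6ra* and *Il6st*; for *Il27ra* and *Lifr* it is wide. *Il12rb2*, which can pair with gp130 to bind IL-35, was under 3 CPM throughout (−0.10, interval −2.82 to 2.61; adjusted p = 0.970). *Cntfr*, the binding chain for ciliary neurotrophic factor, was added after its values were seen and differed by −0.58 (−2.13 to 0.98; adjusted p = 0.639), and *Osmr* was too low to be tested. Of the ligands that signal through gp130, *Clcf1* (cardiotrophin-like cytokine factor 1) was at 17.4 to 35.9 CPM in controls and 0.0778 to 1.13 CPM in mutants (−5.39 ± 0.64; adjusted p = 9.04e-04 by edgeR), with only 3 counts in the lowest library.

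*Il2rg* encodes the common γ chain, used by the receptors for IL-2, IL-4, IL-7, IL-9, IL-15 and IL-21, and *Il7r* and *Il21r* encode chains that pair with it. The specific chains fell sharply in mutants and the common chain did not. *Il7r* (ENSMUSG00000003882; chr15:9505788-9530176, minus strand) had the largest decrease of the 10, from 65.4, 61.6, 86.9 and 51.5 CPM in controls to 6.36, 6.21, 10.6 and 7.39 CPM in mutants. The lowest control was 4.86 times the highest mutant, the widest gap among the 10 chains. Means were 66.3 ± 14.9 and 7.64 ± 2.04 CPM (SD, n = 4 each), an 8.68-fold decrease (−3.12 ± 0.25; adjusted p = 1.14e-04 by edgeR). *Il21r* (ENSMUSG00000030745; chr7:125603429-125633570, plus strand) was at 149, 187, 251 and 205 CPM in controls and at 43.2, 44.2, 42.5 and 19.3 CPM in mutants. Mutants 1 to 3 were nearly equal and mutant 4 stood below them, and the lowest control was 3.38 times the highest mutant. The mean fell 5.31-fold, from 198 ± 42.3 to 37.3 ± 12 CPM (−2.41 ± 0.29; adjusted p = 9.87e-04 by edgeR), and by 2.19 on the log2 scale when mutant 4 was left out.

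*Il2rg* (ENSMUSG00000031304; chrX:101264378-101268255, minus strand) was the least abundant of the 10 in controls, at 15.5, 19.01, 8.72 and 13.3 CPM, and was at 30.2, 30.7, 37.8 and 20.7 CPM in mutants. The groups were separate by a narrow margin, with the lowest mutant 1.09 times the highest control. The mean rose 2.11-fold, from 14.1 ± 4.31 to 29.8 ± 7.03 CPM (1.08 ± 0.28; adjusted p = 0.0357 by edgeR). This call was kept without control 2 and without mutant 4, but the adjusted p was 0.0608 without control 1, 0.0713 without control 3, 0.0622 without control 4, 0.0601 without mutant 1, 0.0839 without mutant 2 and 0.0835 without mutant 3. *Il2rg* is X-linked, and 30.5% of its exon bases are also annotated to *Gm20489*, which was listed at 0 in every library.

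T and NK cells use the common γ chain heavily, and their markers moved in the same direction as *Il2rg*. All 16 had a positive log2 fold change (median 1.61), and 4 were called higher (25.0%, against 4.36% of all genes tested). The called ones were *Cd3e*, *Trac* and *Trbc2* of the T cell receptor complex, and the cytotoxic granule gene *Nkg7*. The summed level of the 16 was 112, 111, 37.1 and 89.0 CPM in controls 1 to 4 and 234, 297, 294 and 102 CPM in mutants 1 to 4. The library lowest for these markers was also the lowest for *Il2rg* in each group, control 3 and mutant 4. The part of these cells in the level of *Il2rg* was not tested. *Il7r*, which T cells also express, went the opposite way to these markers.

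Per kilobase, *Il7r* was 2.45 times as abundant as *Il2rg* in controls and 0.131 times in mutants, a log2 difference of −4.23 ± 0.41 (SE). This was the largest shift between any of the paired chains. For *Il21r* over *Il2rg* the ratio went from 10.3 to 0.871 (−3.56 ± 0.40). Both ratios were separate between the groups (exact permutation p = 0.0286 for each, two-sided). With *Il7r* and *Il21r* lower and *Il2rg* higher in every mutant than in any control, both had to separate. These p-values thus add nothing to the calls of the genes. Both ratios also rest on *Il2rg*, whose call was lost in 6 of 8 fits that left out 1 library. Chains that join the common γ chain in other receptors were not called: *Il2rb*, shared by the IL-2 and IL-15 receptors, differed by 0.67 (−1.005 to 2.35; adjusted p = 0.608 by edgeR) and *Il15ra* by −0.65 (−1.79 to 0.48; adjusted p = 0.439), intervals that include changes as large as that of *Il6ra*. *Il2ra* and *Il9r* were too low to be tested. *Crlf2*, which pairs with *Il7r* in the receptor for TSLP, was 9.80 ± 1.23 CPM in controls and 18.6 ± 4.70 CPM in mutants (0.92 ± 0.23; adjusted p = 0.0338 by edgeR). Its call was kept without mutants 1 and 2 and lost without control 1 (0.0716), control 2 (0.0972), control 3 (0.0519), control 4 (0.0563), mutant 3 (0.0812) or mutant 4 (0.0826).

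**Figure D3:**
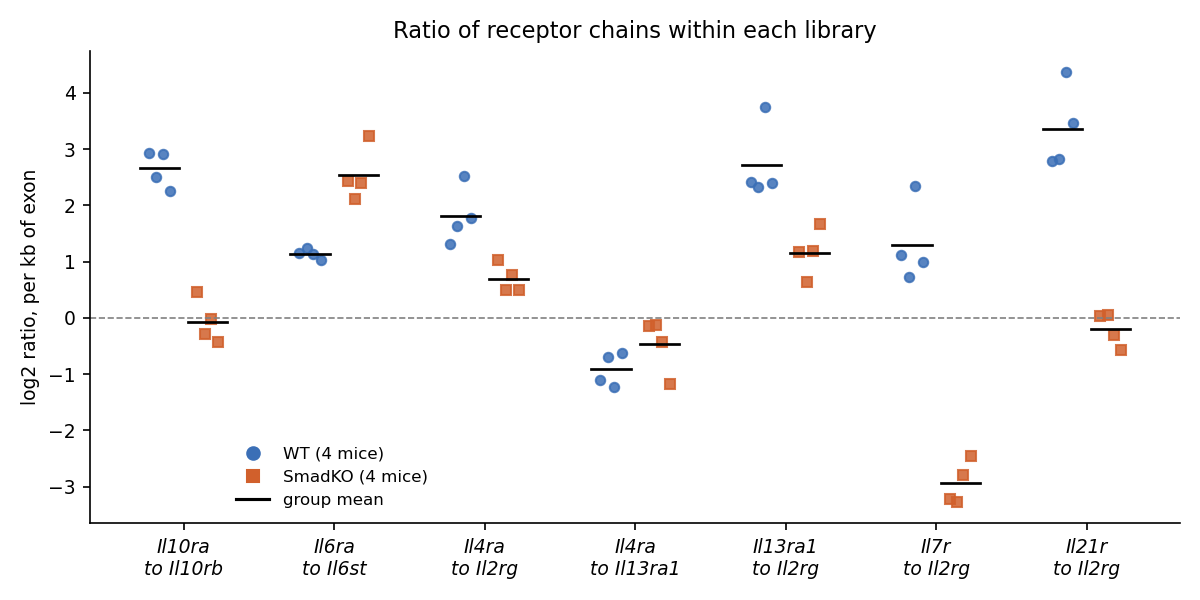
Log2 ratio of the levels per kilobase of paired receptor chains in each library (points), with the group means, for 7 pairs. For all pairs but *Il4ra* to *Il13ra1* the mutant libraries are separate from the controls; the *Il7r* to *Il2rg* ratio moved furthest, from 1.29 to −2.93.

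*Il4ra* pairs with the common γ chain to bind IL-4, or with *Il13ra1* to bind IL-4 and IL-13. Neither *Il4ra* nor *Il13ra1* was called. *Il4ra* (ENSMUSG00000030748; chr7:125552120-125579474, plus strand) was at 96.7, 148, 126 and 114 CPM in controls and at 155, 109, 161 and 73.2 CPM in mutants. The mutants spread to both sides of the controls, with means of 121 ± 21.5 and 124 ± 41.3 CPM (SD, n = 4 in each group). On the log2 scale *Il4ra* differed by 0.04, with an interval from −0.55 to 0.62 (adjusted p = 0.949 by edgeR), which leaves out changes as large as those of the 8 chains that were called. *Il21r* begins 23954 bases beyond the end of *Il4ra* on the same strand of chromosome 7, so that the chain with the smallest change of the 10 lies beside 1 of those that fell most. *Il13ra1* (ENSMUSG00000017057; chrX:36112110-36171259, plus strand) was at 129, 148, 183 and 109 CPM in controls and at 106, 73.8, 134 and 102 CPM in mutants. Mutant 3 lay within the control range and the other mutants below it. The means were 142 ± 31.9 and 104 ± 24.6 CPM (−0.46, interval −0.96 to 0.05; adjusted p = 0.216 by edgeR), so that a decrease of nearly 1 on the log2 scale or none at all is compatible with these libraries.

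The ratio of *Il4ra* to *Il13ra1* was −0.91 ± 0.30 (log2, SD, n = 4) in controls and −0.47 ± 0.49 in mutants, a difference of 0.45 ± 0.29 that did not pass the test (exact permutation p = 0.143, two-sided). Against the common γ chain, *Il4ra* went from a ratio of 3.51 to 1.62 (−1.12 ± 0.29, log2; exact permutation p = 0.0286). That change came with *Il2rg*, as *Il4ra* itself did not differ. *Il13ra1* over *Il2rg*, chains of alternative IL-4 receptors, went from 6.61 to 2.24 (−1.56 ± 0.40; exact permutation p = 0.0286). In controls, control 3 stood apart in this ratio, and without it the difference was −1.22.

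*Il17ra* encodes the chain common to the receptors for IL-17A, IL-17F and other members of that family. *Il17ra* (ENSMUSG00000002897; chr6:120463247-120487559, plus strand) was at 157, 223, 267 and 131 CPM in controls and at 77.2, 70.2, 74.6 and 63.5 CPM in mutants. The mutants were nearly equal, while the controls spread widely, and the lowest control was 1.69 times the highest mutant. The mean fell 2.72-fold, from 194 ± 61.9 to 71.4 ± 5.99 CPM (−1.45 ± 0.23; adjusted p = 0.00396 by edgeR). Its partner *Il17rc* differed by 0.81 (interval −0.05 to 1.67) and was not called (adjusted p = 0.199 by edgeR), but it passed, at 1.34 and an adjusted p of 0.0197, without control 4. *Il17rb*, *Il17rd* and *Il17re*, other chains of this family named after their values were seen, differed by 0.23, 1.04 and 0.64 and were not called either (adjusted p from 0.370 to 0.936 by edgeR). Of 12 genes for IL-17 receptor adaptors and the kinases and NF-κB genes behind them, 1 rose and 2 fell (25.0%, against 12.3% of all genes tested). *Traf3ip2*, which encodes Act1, the adaptor that binds the IL-17 receptor directly, rose from 2.95 ± 0.571 to 8.46 ± 2.39 CPM (1.52 ± 0.31; adjusted p = 0.0143 by edgeR). The adaptor *Traf5* (−1.44, adjusted p = 0.0397) and the kinase *Map3k7* (−0.78, adjusted p = 0.0455) were near the threshold. *Traf5* kept its call only without control 4 and mutant 3, with adjusted p up to 0.110 without control 3, and *Map3k7* only without mutant 3, with adjusted p up to 0.123, again without control 3. Only 1 of these 12 genes was called without control 1, control 2, control 3, mutant 1, mutant 2 or mutant 4. Calls over all genes in these fits ran from 1567 to 2499, against 2485 with all libraries, so the share of 25.0% was not kept.

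Set in order of level per kilobase of exon, the 10 chains were ranked differently in controls and mutants. In controls *Il10ra* led at 205 ± 61.5 CPM per kb (SD, n = 4), followed by *Il21r* at 59.6 ± 12.7, *Il13ra1* at 38.3 ± 8.59 and *Il10rb* at 32.1 ± 6.46. *Il17ra* (22.4 ± 7.15), *Il4ra* (20.2 ± 3.59), *Il6ra* (17.9 ± 3.99) and *Il7r* (14.2 ± 3.19) came next, and *Il6st* (8.12 ± 2.001) and *Il2rg* (5.92 ± 1.81) were last. Only the steps from *Il10ra* to *Il21r* and from *Il7r* to *Il6st* were free of overlap between the libraries of neighbours. In mutants *Il10rb* (74.5 ± 13.5 CPM per kb) and *Il10ra* (72.3 ± 20.4) shared the top, with overlapping values, and *Il13ra1* (28.0 ± 6.63) and *Il4ra* (20.7 ± 6.87) followed. *Il2rg* (12.5 ± 2.94), *Il21r* (11.2 ± 3.61), *Il17ra* (8.24 ± 0.692) and *Il6ra* (7.86 ± 1.67) formed the next group, and *Il7r* (1.64 ± 0.438) and *Il6st* (1.40 ± 0.502) were lowest. Here the steps from *Il10ra* to *Il13ra1* and from *Il6ra* to *Il7r* had no overlap. *Il21r*, next to the top in controls, thus lay among the lower chains of the mutants. By this measure *Il2rg*, last in controls, lay above *Il17ra*, *Il6ra*, *Il7r* and *Il6st*. The lengths include exon bases shared with genes listed at 0 in all libraries (30.5% for *Il2rg*, 14.9% for *Il10rb*, 9.51% for *Il4ra*). Whether reads were lost there was not tested. The levels per kb of these chains may be too low, which bears on their ranks and ratios to other chains.

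**Figure D4:**
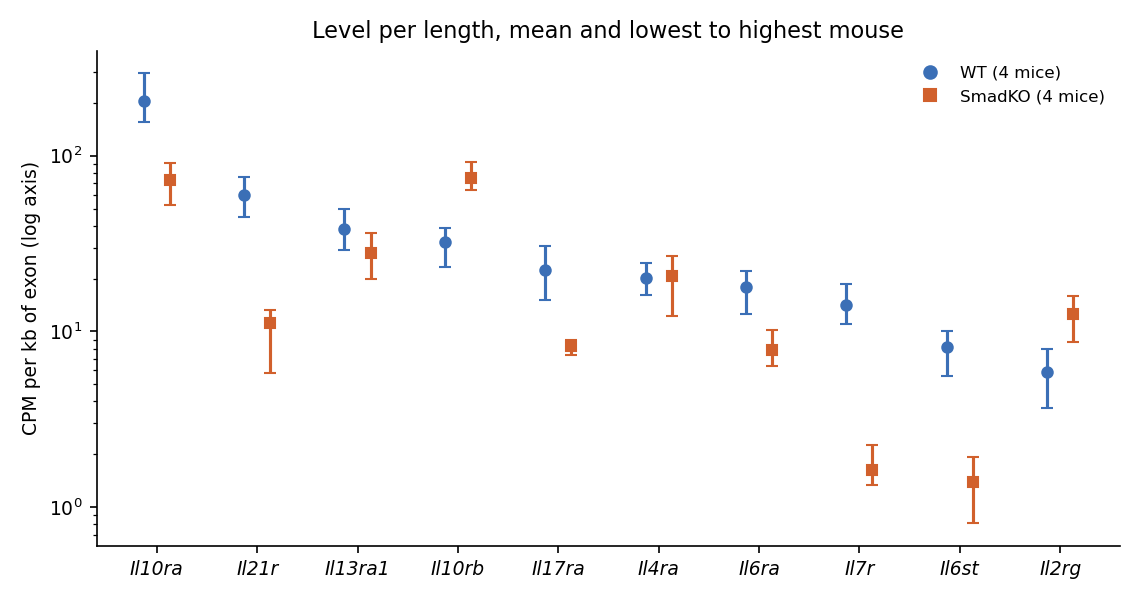
Mean level of each receptor chain in CPM per kb of exon (log axis) in controls and mutants, with bars from the lowest to the highest library. *Il10ra* stands above all other chains in controls at 205 CPM per kb, and *Il10rb* and *Il10ra* lie together in mutants at 74.5 and 72.3.

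Among 39 other cytokine receptor genes, 28 could be tested, of which 5 rose and 2 fell (25.0% called, against 12.3% of all genes tested). The median log2 fold change of these 28 was 0.31, where that of the 10 interleukin receptor chains was −1.32. *Csf3r*, the receptor for granulocyte colony-stimulating factor, fell from 312 ± 68.0 to 62.6 ± 7.98 CPM (−2.32 ± 0.19; adjusted p = 1.41e-04 by edgeR). *Ifnar2*, a chain of the type I interferon receptor, rose from 191 ± 31.5 to 364 ± 45.2 CPM (0.93 ± 0.17; adjusted p = 0.00766). These 2 calls were kept whichever library was left out. The others were lost in some fits: *Ifngr1*, the binding chain for interferon-γ (−0.97, adjusted p = 0.0207), without control 2, mutant 2 or mutant 4 (up to 0.0636); *Csf2ra*, the binding chain for GM-CSF (1.09, 0.0240), without control 1, control 3, mutant 2 or mutant 3 (up to 0.0653); and *Csf2rb*, its signalling chain (0.97, 0.0280), without control 1, control 2, mutant 1 or mutant 3 (up to 0.0715). *Epor*, the erythropoietin receptor, was at 2.23 ± 1.63 and 27.4 ± 6.03 CPM (3.62 ± 0.92; adjusted p = 0.0349), and its call was kept only without control 1. The number of calls in this group was 3 without control 2 or mutant 3, and 4 without control 1, control 3, mutant 2 or mutant 4. Without control 2 or mutant 3, calls over all genes were 1572 and 1992, against 2485 with all libraries. The share of 25.0% was thus not kept in these fits.

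**Figure D5:**
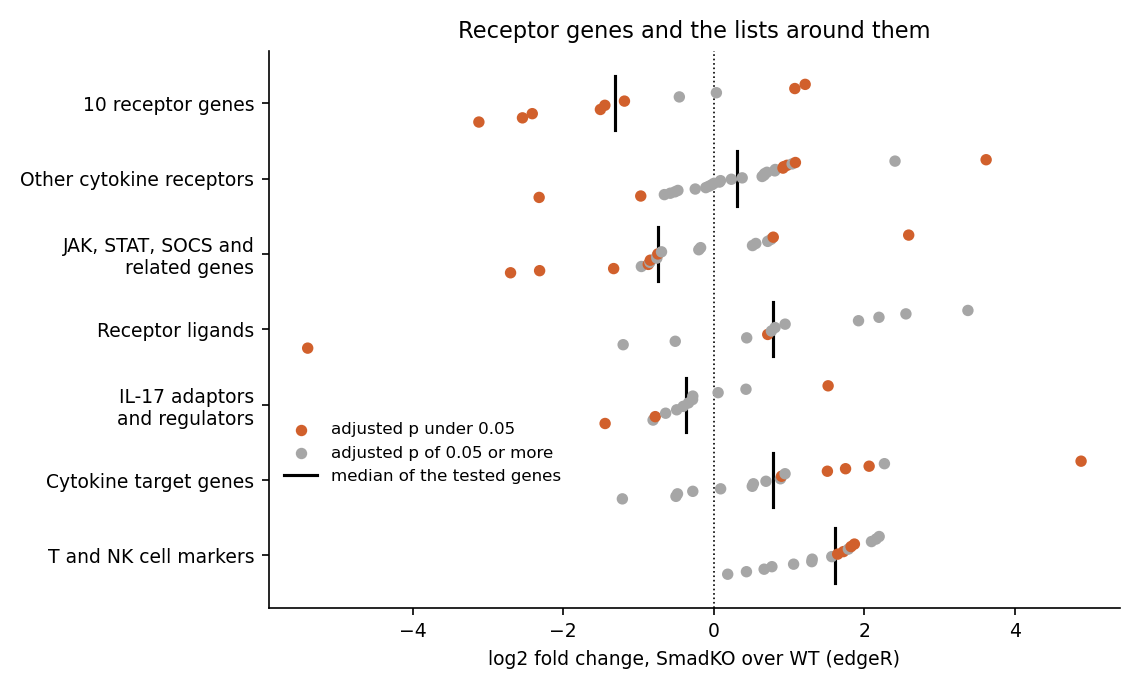
Log2 fold change of every tested gene (points) in the interleukin receptors and 6 further gene groups, with called genes in orange and the median of each group as a line. The receptors have a median of −1.32, the JAK, STAT and SOCS genes one of −0.74, and the ligands and target genes one of 0.79 each.

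The kinases and transcription factors that carry signals from these receptors included some of the larger decreases. Of 19 JAK, STAT and SOCS pathway genes, 6 fell and 2 rose (42.1% called, against 12.3% of all genes tested), with a median log2 fold change of −0.74. Calls over all genes leaned the same way, with 7.97% lower and 4.36% higher. *Jak3*, the kinase that binds the common γ chain, was at 54.8, 53.4, 60.7 and 35.4 CPM in controls and 12.5, 8.03, 3.26 and 7.69 CPM in mutants. It fell from 51.1 ± 10.9 to 7.87 ± 3.78 CPM (−2.70 ± 0.38; adjusted p = 0.00220 by edgeR), and no mutant came near a control. *Stat3*, which gp130 and the IL-10 and IL-21 receptors activate, fell from 171 ± 26.8 to 68.2 ± 16.2 CPM (−1.33 ± 0.21; adjusted p = 0.00390). *Socs3*, an inhibitor that STAT3 induces and that binds gp130, was at 1118, 1704, 2333 and 910 CPM in controls and 291, 217, 395 and 318 CPM in mutants (−2.31 ± 0.33; adjusted p = 0.00213). *Ptpn6*, which encodes the phosphatase SHP-1, fell as well (−0.87 ± 0.18; adjusted p = 0.0140). These 4 calls were kept whichever library was left out.

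The remaining calls in this pathway were close to the threshold, and the number called in all was 4 without control 3 or mutant 3 and 5 without mutant 2 or mutant 4. *Socs1*, an inhibitor of JAKs, was higher at 23.5 ± 3.15 against 13.6 ± 2.02 CPM (0.79; adjusted p = 0.0253 by edgeR), and lost its call without control 1, control 3, control 4, mutant 2 or mutant 3 (up to 0.0770). *Stat6*, the factor of the IL-4 receptor, was lower (−0.84; adjusted p = 0.0447), and lost it without control 2, control 3, mutant 2, mutant 3 or mutant 4 (up to 0.118). *Stat4*, best known as the factor of IL-12 (2.59, 0.0377), lost it without control 1, control 3, mutant 1, mutant 3 or mutant 4 (up to 0.104), and *Pias3*, an inhibitor of STAT3 (−0.74, 0.0388), without any library but mutant 1 (up to 0.101). The kinases *Jak1* (−0.69, interval −1.22 to −0.16; adjusted p = 0.0875), *Jak2* (−0.75; 0.243) and *Tyk2* (−0.96; 0.114), the factors *Stat5a* (−0.85; 0.0844) and *Stat5b* (−0.75; 0.0600) and the inhibitor *Cish* (0.72; 0.324) were not called by edgeR. Of these, *Stat5a* passed without control 1 (0.00913), and *Stat5b* without control 1 (0.0454) or mutant 1 (0.0441). DESeq2, which called 20.7% of all genes against 12.3% by edgeR, called *Jak1* (0.0373), *Stat5a* (0.0330) and *Stat5b* (0.0188). *Stat5b* also passed in edgeR among genes with at least 10 counts in all libraries (0.0464).

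Ligands of these receptors were mostly scarce in the sorted cells. Of 23, 12 could be tested, with 1 higher and 1 lower (16.7% called, close to the 12.3% of all genes tested; median 0.79), and *Il13*, *Il9* and *Il17b* were listed at 0 in all libraries. Besides *Clcf1*, *Il15* was called, at 12.8 ± 2.02 CPM in controls and 21.1 ± 1.68 CPM in mutants (0.72 ± 0.19; adjusted p = 0.0360 by edgeR), a call that was kept only without mutant 1 and otherwise reached up to 0.0863, without mutant 3. Only 1 ligand was called without control 1, control 3, mutant 2 or mutant 4. *Il10*, singled out after its values were seen, lay at 0 to 1.40 CPM in controls and 3.42 to 11.4 CPM in mutants and missed the threshold (3.38; adjusted p = 0.0557 by edgeR).

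Of 18 genes known as targets of signals from these receptors, 16 could be tested, of which 5 rose and none fell (31.2% called, against 12.3% of all genes tested; median 0.79). The SOCS genes and *Cish* were counted with the JAK and STAT genes and not in this list. Of these, *Socs3*, which STAT3 induces, fell (−2.31, adjusted p = 0.00213 by edgeR) and *Socs1* rose (0.79, 0.0253). *Socs2* (0.76, 0.142) and *Cish* (0.72, 0.324) were not called. At an unadjusted p below 0.05, 1 of the 16 was lower by edgeR. DESeq2, which called 20.7% of all genes, called 1 lower and 6 higher of the 17 it tested. *Chil3*, a chitinase-like gene of alternative activation singled out after its values were seen, went against the called genes of the list, at 65.8 to 175 CPM in controls and 28.2 to 57.5 CPM in mutants (−1.21 ± 0.36; adjusted p = 0.0584 by edgeR). Without control 3 the number of calls was 3. *Mrc1*, the mannose receptor and a classical IL-4 target, rose from 11.1 ± 4.03 to 328 ± 65.0 CPM (4.88 ± 0.31; adjusted p = 4.82e-05 by edgeR). *Pim1*, a kinase that STAT factors induce, rose from 11.4 ± 2.02 to 47.7 ± 9.13 CPM (2.07 ± 0.21; adjusted p = 3.98e-04), and *Bcl3*, a regulator of NF-κB, from 6.60 ± 2.38 to 18.8 ± 3.51 CPM (1.51 ± 0.29; adjusted p = 0.00933). *Mgl2*, a lectin of alternative activation, rose as well (1.75; adjusted p = 0.0186), with 0.0536 without control 3. *Bcl2*, which protects cells from apoptosis, was just past the threshold (0.90; adjusted p = 0.0491) and kept its call only without mutant 4. *Mrc1* is also a defining gene of border macrophages, whose markers rose with it, and the part of such cells in its level was not tested.

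Markers of other cells did not move together. B cell markers were summed at 500 to 882 CPM in controls and 132 to 212 CPM in mutants, but 4 of 8 had a positive log2 fold change and their median was −0.06. Most of that sum in controls was *Ighm*, an immunoglobulin chain at 410 to 700 CPM in controls and 32.2 to 56.2 CPM in mutants, while the B cell receptor chains *Cd79a* and *Cd79b* differed by 0.06 and 0.07. Of the 8, *Ighm* was called lower and *Cd22* higher (25.0% called, against 12.3% of all genes tested). *Cd22* was at 1.26 to 8.93 CPM in controls and 23.2 to 54.4 CPM in mutants (3.14, adjusted p = 0.00856 by edgeR). Monocyte and neutrophil markers were summed at 816 to 2232 and 391 to 988 CPM, with 1 of 10 called lower. Dendritic cell markers were at 27.1 to 48.1 and 26.1 to 42.5 CPM, and none of the 6 tested was called by edgeR. Of these 6, 1 was at an unadjusted p below 0.05 and 1 was called by DESeq2, which called 20.7% of all genes. The summed neural markers, 1758 to 5181 CPM in controls and 1076 to 3646 CPM in mutants, included the transporter *Slc1a3*, listed as an astrocyte marker. It fell (1083 to 1756 against 25.8 to 170.1 CPM). The astrocyte markers *Aqp4* and *Gfap* had means of only 15.0 and 33.1 CPM in controls, and which cells gave the *Slc1a3* level was not tested. The 9 neural markers other than *Slc1a3* had positive log2 fold changes, none called, and the median of the 10 was 0.67. Vascular markers were summed at 69.1 to 167 and 118 to 197 CPM, with 1 of 5 called lower and a median of −1.97. The part of such cells in the receptor levels was not tested.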

How the data were processed

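RNA from sorted microglia of 4 mutant and 4 control mice at P60 was analysed, with 1 library per mouse. Reads were mapped by the authors with Rsubread (build mm10) and assigned to genes with featureCounts, and the deposited values are raw counts per gene, not normalized. Other versions of these tools and the annotation are not given in the sources used here. The labels name a single-end unstranded library kit and the methods a paired-end one, and since the methods point to a different deposit for the *Smad2/3* mutants, genotype and cell type are what tie these libraries to the study. The libraries are unstranded per the labels, so reads of overlapping genes cannot be told apart. A table of the authors' DESeq2 (version 1.28) comparison, with fold changes and p-values, was not used. All columns of counts belonged to these mice.

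Genes that reached 10 counts in 4 or more of the 8 libraries were tested on the deposited counts with edgeR 4.0.16 in R 4.3.3 (TMM scaling, estimateDisp, glmQLFit, glmQLFTest, all 8 libraries, no covariate), and p-values were adjusted by Benjamini-Hochberg over all 20153 genes, with calls at 0.05. Levels are TMM-scaled CPM, and levels between genes are CPM per kb of merged exon in GENCODE M21 (GRCm38), in which 55394 of the 55573 listed genes were found. Paired chains were compared by the log2 ratio of their levels per kb, with 0.5 added to each count, and an exact permutation test. Promoters were taken from RefSeq. DESeq2 1.42.0, other scalings and filters, a block for the replicate number and leaving out each library were the alternatives. The tests were checked on simulated counts with 200 changed genes. Each was changed by 2 on the log2 scale. There edgeR recovered 49% of them with 2% of its calls false, and DESeq2 63% with 30.4% false. Of the 102 changed genes over 10 CPM, edgeR recovered 86.3% and DESeq2 97.1%. The receptors, the other gene lists and the tests were chosen with earlier results of these data known. The text names all 10 receptors, a set of their partner chains, the main JAK, STAT and SOCS genes, and up to 8 called genes of each other list by mean level. Replicates are separate mice, and totals of 35639502 to 41946479 counts set the counting error.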

Additional observations from a re-analysis of the deposited data

Results flagged for a closer look

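A value was marked where the highest or lowest of the 4 libraries of a group stood further from its neighbour than Dixon's test allows. Of 118 groups of values examined, 3 were marked, and chance marks about 1 in 20. *Il21r* was at 19.3 CPM in mutant 4, with the other mutants between 42.5 and 44.2 CPM. *Bcl3* was at 10.1 CPM in 1 control library and between 5.23 and 5.78 CPM in the other controls. The log2 ratio of *Il13ra1* to *Il2rg* per kilobase was 3.76 in control 3 and between 2.33 and 2.42 in the other controls.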

How the results depend on the processing

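Of the receptor calls, 7 were kept under every alternative tried, and that of *Il2rg* was lost with a replicate block (log2 fold change 1.09, adjusted p = 0.0660) and in 6 of 8 fits that left out 1 library (0.91 to 1.26). *Il4ra*, never called, was −0.015 with the replicate block and −0.11 to 0.22 with 1 library left out. The levels per length moved by less than 1 SD under other scalings, chosen after seeing the data. The 7 chain ratios kept their direction throughout, and their calls with 2 added to each count. As paired differences they are the same (−2.73, 1.40, −1.12, −1.56, −4.23 and −3.56 for those that passed), but 4 pairs cannot give an exact p below 0.125, and with 1 library left out no p was computed, so neither bears on those calls. By the labels, same-numbered mice share only a number. Their deviations from the group means correlated at 0.166, 0.0183, 0.144 and 0.114 for numbers 1 to 4; mice 1, 3 and 4 of each group correlated best with their own number, a hint from the data and not the design, and control 2 with mutant 1 (0.108). The block took the calls over all genes from 2485 to 2383 and those among cytokine target genes from 5 to 3: besides *Il2rg*, it left *Epor*, *Stat4*, *Stat6*, *Pias3*, *Il15*, *Mgl2* and *Bcl2* uncalled (adjusted p from 0.0570 for *Il15* to 0.0973 for *Stat4*) and called *Jak1* (−0.72, 0.0347). DESeq2 called 4751 genes in all (20.7% of those it tested) and 4 ligands. With no filter, 4 JAK, STAT and SOCS genes and 1 ligand were called, and with at least 10 counts in all libraries 1 ligand. With 1 library left out, calls ranged from 1567 (without control 3; 1572 without control 2) to 2499 over all genes, 3 to 6 for other cytokine receptors, 4 to 8 for JAK, STAT and SOCS genes, 1 to 2 for ligands, 1 to 3 for IL-17 adaptors and 3 to 5 for target genes. *Smad3* was −1.35 with no filter (adjusted p = 0.0510) and −1.79 to −1.11 with 1 library left out. Uncalled genes near 0 changed sign: *Il11ra1* (0.095) and *Il12rb2* (0.045) with library totals as the scale, which shifts the median of all genes by 0.12, and with 1 library left out *Il11ra1* (−0.070 to 0.059), *Il12rb2* (−0.52 to 0.56), *Il27ra* (−0.58 to 0.024) and *Lifr* (−0.068 to 0.35). The causes were not tested.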
